A study of Homo sapiens with 18 samples.

Results

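The Rap1 cycle was described here by 10 genes out of 16575 in the table. The members were the rows whose Ensembl identifiers map to RAP1A and RAP1B (2 GTPases), RAPGEF1, RAPGEF2 and RAPGEF6 (3 guanine nucleotide exchange factors, GEFs), and RAP1GAP, SIPA1, SIPA1L1, SIPA1L2 and SIPA1L3 (5 GTPase-activating proteins, GAPs). The data were CAGE libraries, in which the capped 5′ end of each transcript is sequenced, from 3 established human bladder carcinoma lines: CAL-29, HT-1376 and RT-112. Each line was carried through 6 variants with 1 library per line and variant, so that the libraries of a line served as its replicates and the lines served as replicates of a variant. The study asked which genes respond to WWOX, a tumour suppressor, and to the transcription factors AP-2α and AP-2γ, encoded by TFAP2A and TFAP2C.

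All cells had undergone 2 stable lentiviral transductions at the same multiplicity, with puromycin selection after the first and G418 selection after the second. KK cells received blank vectors both times. KA and KC cells received a blank vector and then AP-2α or AP-2γ from the pLKO-Neo-CMV system. WK cells received WWOX from the pLenti-GIII-CMV-GFP-2A-Puro system and then a blank vector, and WA and WC cells received WWOX followed by AP-2α or AP-2γ. The transgenes were thus driven by the CMV promoter, and the protocol speaks of antibiotic clone selection without saying whether a variant was 1 clone or a pool. RT-112 was grown in RPMI-1640 and the other lines in DMEM, so medium and line cannot be told apart between them. No source says that the libraries came from separate cultures repeated within a variant.

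Rap1 is a small GTPase of the Ras family that switches between a GDP-bound and a GTP-bound form. GEFs load it with GTP, and GAPs speed up hydrolysis of the bound GTP and so turn the switch off. GTP-bound Rap1 is best known for activating integrins and for strengthening cadherin junctions between epithelial cells, which makes it relevant to adhesion and spread of carcinoma cells. RAP1A and RAP1B encode near-identical proteins. RAPGEF1 acts downstream of CRK adaptor proteins, while RAPGEF2 and RAPGEF6 are related PDZ domain exchange factors. SIPA1 and its SIPA1-like relatives share a GAP domain with RAP1GAP.

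The 18 libraries held 13357102 to 17958572 reads on genes, so that 1 read corresponded to 0.0526 to 0.0709 CPM, the reads of a gene scaled to the library's reads on all genes. The epithelial markers EPCAM, CDH1, KRT8, KRT18 and KRT19 were above 5 CPM in all 18 libraries, as were the urothelial markers GATA3 and KRT7, while UPK3A reached 5 CPM in 1 library and FOXA1 in 11. FOXA1 was nearly absent from HT-1376, with a median of 0.08 CPM. The library labelled CAL-29 KC resembled HT-1376 (median correlation across genes 0.94) more than the other CAL-29 libraries (0.741). It is therefore shown apart, and the statements on CAL-29 below rest on 5 libraries unless said otherwise. TFAP2C measured 179.87 CPM in the library labelled RT-112 WA against 56.20 in RT-112 WK, whereas TFAP2A measured 25.32 against 20.31, so that library carried the elevation its WC counterpart is labelled for. HT-1376 WA had no rise of TFAP2A over its controls either, at 69.91 CPM against 76.90 in WK and 68.99 in KK. RT-112 WA and HT-1376 WA both entered the AP-2α comparison under their labels. TFAP2C in HT-1376 WC measured 162.76 CPM, above 68.99 in WK but close to 158.24 in KK, and this library kept its label too. WWOX measured 18.45 to 22.33 CPM in the W variants and 23.52 to 26.04 in the K variants of RT-112, and in HT-1376 these ranges overlapped. Only in CAL-29 WK, at 154.92 CPM against 63.68 in KK, was a W library far above its control. A vector transcript need not start at a native promoter. How far the CAGE values of WWOX, TFAP2A and TFAP2C include the transgenes was not tested.

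The members lie on 8 chromosomes in hg38 with GENCODE 44 positions. RAP1A (ENSG00000116473.14) spans chromosome 1 from 111542218 to 111716691 on the plus strand, and RAP1B (ENSG00000127314.18) chromosome 12 from 68610855 to 68671901 on the plus strand. Of the GEFs, RAPGEF1 (ENSG00000107263.18) lies on chromosome 9 at 131576770 to 131740076 (minus), RAPGEF2 (ENSG00000109756.9) on chromosome 4 at 159103013 to 159360174 (plus) and RAPGEF6 (ENSG00000158987.22) on chromosome 5 at 131423921 to 131635231 (minus). Of the GAPs, RAP1GAP (ENSG00000076864.19) lies on chromosome 1 at 21596221 to 21669357 (minus), SIPA1 (ENSG00000213445.10) on chromosome 11 at 65638101 to 65650918 (plus) and SIPA1L1 (ENSG00000197555.9) on chromosome 14 at 71320449 to 71741229 (plus). SIPA1L2 (ENSG00000116991.11) lies on chromosome 1 at 232397965 to 232630571 (minus) and SIPA1L3 (ENSG00000105738.11) on chromosome 19 at 37907208 to 38208369 (plus). RAP1A overlaps INKA2 and RAP1B overlaps ATP5PDP4 on the opposite strand, and SIPA1 overlaps MIR4489 on the same strand. Whether the strand was used to assign reads to these genes is not given in the sources used here.

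Since CAGE counts transcript starts, the stretches before the annotated starts are shown for the members whose values carry the results, with the letters matching the AP-2 consensus GCCNNNGGC in capitals. The motif reads the same on both strands. The sequences are the 250 bases before the RefSeq gene start on the gene's own strand, 5′ to 3′, on GRCh38.p14. For RAP1B, SIPA1L1, SIPA1L2 and RAPGEF2 the RefSeq start lies downstream of the GENCODE start given above.
RAP1B, chr12:68610649-68610898, plus strand: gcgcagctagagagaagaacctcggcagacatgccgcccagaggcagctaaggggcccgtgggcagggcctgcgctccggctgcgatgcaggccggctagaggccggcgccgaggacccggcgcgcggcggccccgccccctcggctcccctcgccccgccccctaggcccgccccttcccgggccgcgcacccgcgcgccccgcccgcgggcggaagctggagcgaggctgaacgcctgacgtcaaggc
SIPA1, chr11:65637851-65638100, plus strand: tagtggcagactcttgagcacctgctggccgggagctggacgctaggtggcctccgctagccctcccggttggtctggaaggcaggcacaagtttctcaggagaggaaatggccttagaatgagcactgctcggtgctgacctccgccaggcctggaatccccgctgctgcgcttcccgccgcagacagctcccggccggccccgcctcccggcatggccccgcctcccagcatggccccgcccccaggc
SIPA1L1, chr14:71320226-71320475, plus strand: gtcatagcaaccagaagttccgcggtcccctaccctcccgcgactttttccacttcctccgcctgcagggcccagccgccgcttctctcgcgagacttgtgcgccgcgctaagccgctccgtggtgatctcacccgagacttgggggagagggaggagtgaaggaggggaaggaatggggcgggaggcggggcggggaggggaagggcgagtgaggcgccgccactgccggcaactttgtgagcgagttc
SIPA1L2, chr1:232630134-232630383, minus strand: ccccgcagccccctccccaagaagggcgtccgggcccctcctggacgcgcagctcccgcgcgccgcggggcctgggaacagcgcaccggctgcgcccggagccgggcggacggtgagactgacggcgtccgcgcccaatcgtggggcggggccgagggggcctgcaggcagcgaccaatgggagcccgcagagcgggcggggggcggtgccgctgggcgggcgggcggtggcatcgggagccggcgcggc
SIPA1L3, chr19:37906958-37907207, plus strand: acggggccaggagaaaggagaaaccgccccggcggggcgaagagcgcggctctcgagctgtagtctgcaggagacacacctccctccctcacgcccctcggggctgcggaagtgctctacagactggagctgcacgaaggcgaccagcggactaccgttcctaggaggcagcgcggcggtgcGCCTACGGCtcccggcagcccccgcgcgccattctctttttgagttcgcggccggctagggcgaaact
RAPGEF2, chr4:159102829-159103078, plus strand: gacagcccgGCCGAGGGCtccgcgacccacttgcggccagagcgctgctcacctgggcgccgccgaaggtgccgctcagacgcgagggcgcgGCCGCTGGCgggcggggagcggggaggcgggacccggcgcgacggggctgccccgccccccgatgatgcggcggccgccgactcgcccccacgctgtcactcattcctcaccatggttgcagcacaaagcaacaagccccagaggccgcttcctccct
RefSeq windows of 250 bases before to 50 bases after a start were found for 9 of the 10 members (16 windows in all, since some genes have several), and RAP1GAP had none. The motif occurred in 5 of the 16 windows, against 23.2% of all 35116 windows and 31.3% of the windows of genes tested below. It was found in 1 window each of RAPGEF1, RAPGEF2, RAPGEF6, SIPA1L1 and SIPA1L3, and the match of RAPGEF6 lay 35 bases after the start. The SIPA1L1 match belonged to another annotated start, so that the SIPA1L1 stretch above holds none. SIPA1, SIPA1L2, RAP1A and RAP1B had no match in these windows.

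All 10 members exceeded 5 CPM in at least 1 library and were therefore among the 13022 genes tested. SIPA1L2 passed through 3 CAL-29 libraries alone and RAPGEF2 through 4 CAL-29 libraries alone, so their higher level in CAL-29 is tied to how they entered the test. SIPA1 and RAPGEF6 reached 5 CPM in no RT-112 library and passed through the other lines. Without the filter, limma gave an adjusted p of 1.07e-05 for SIPA1L2, 0.000968 for RAPGEF2, 1.41e-08 for SIPA1 and 0.00984 for RAPGEF6 in CAL-29 against RT-112. Because each transcript gives 1 tag in CAGE whatever its length, CPM can be compared between genes. RAPGEF1 was the leading GEF in every library and made up at least 71.0% of the summed CPM of the GEFs in each of the 17 libraries. The GAP genes of a library summed to 46.3 to 57.57 CPM in RT-112. In HT-1376 they summed to 45.95 to 65.38 CPM, and CAL-29 ranged from 76.86 to 165.65 CPM.

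**Figure D1:**
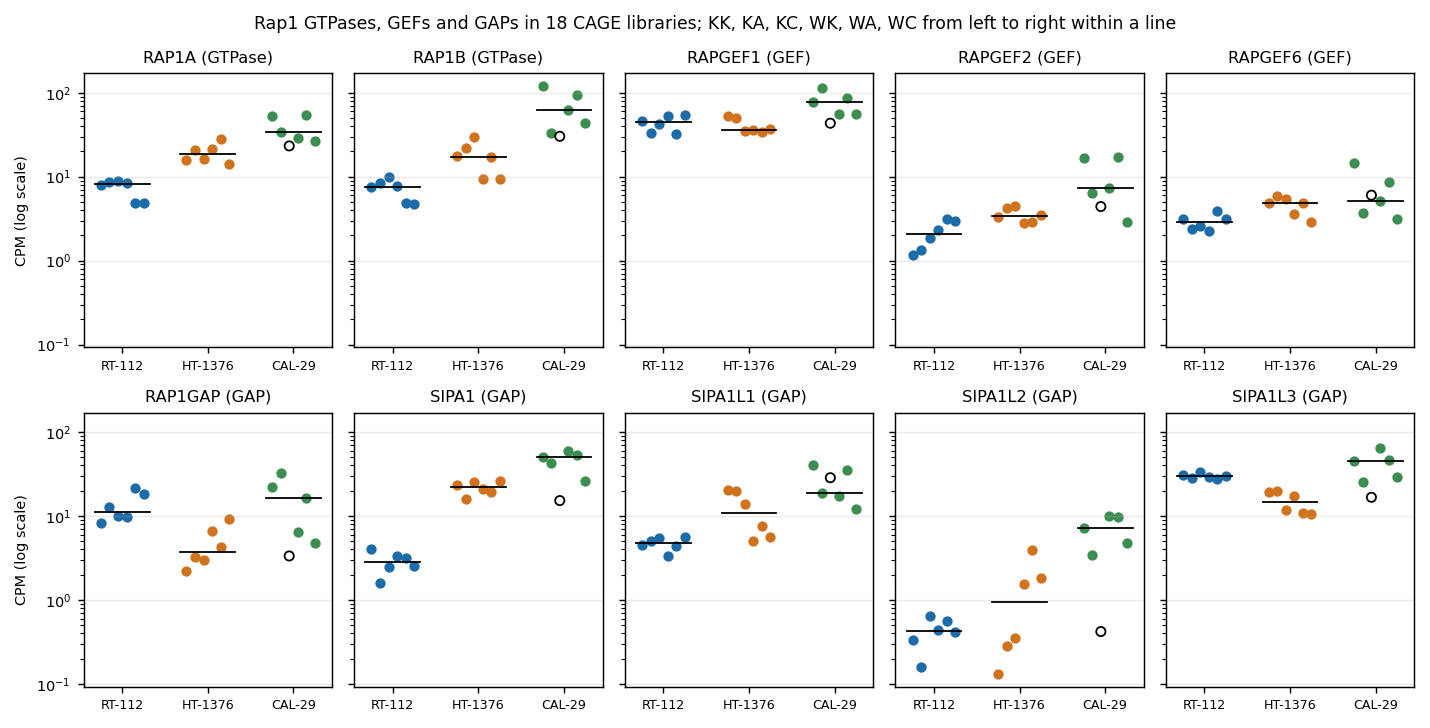
Level of each member in every library in CPM on a log scale, grouped by cell line, with the K variants (KK, KA, KC) left of the W variants (WK, WA, WC) and a black line at the median. The open circle is the library labelled CAL-29 KC, which is left out of the median. SIPA1 rises from a median of 2.83 CPM in RT-112 to 49.83 in CAL-29, whereas SIPA1L3 is lowest in HT-1376.

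The cell lines differed in both GTPases. RAP1A measured 4.82 to 8.87 CPM in RT-112 (median 8.10), 14.30 to 27.80 in HT-1376 (median 18.62), and 52.47 (KK), 33.84 (KA), 29.23 (WK), 55.03 (WA) and 26.93 (WC) in CAL-29. RAP1B measured 4.70 to 9.78 CPM in RT-112 (median 7.60), 9.29 to 29.92 in HT-1376 (median 17.24), and 121.31 (KK), 32.84 (KA), 61.82 (WK), 93.38 (WA) and 43.30 (WC) in CAL-29. All CAL-29 libraries were above all RT-112 libraries for both genes, and for RAP1B also above all HT-1376 libraries, whereas RAP1A of HT-1376 and CAL-29 overlapped. The CAL-29 libraries were themselves spread widely, with KK and WA the highest for both genes. The same KK and WA libraries had the highest median gene level of the table (14.97 and 15.33 CPM, against 8.10 to 12.04 in the other 3 CAL-29 libraries), and the part of this in the spread was not tested.

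By limma on log2(CPM + 0.5), with line and variant as terms and Benjamini-Hochberg adjustment over all genes, RAP1B was higher in CAL-29 than in RT-112 by a log2 fold change of 3.24 ± 0.30 (SE, adjusted p = 7.88e-07) and RAP1A by 2.36 ± 0.24 (adjusted p = 1.85e-06). Against HT-1376, RAP1B was higher in CAL-29 by 2.08 ± 0.30 (adjusted p = 6.12e-05) and RAP1A by 0.99 ± 0.24 (adjusted p = 0.00306). HT-1376 exceeded RT-112 by 1.37 ± 0.23 for RAP1A (adjusted p = 0.000143) and by 1.16 ± 0.28 for RAP1B (adjusted p = 0.00267). Thus the order RT-112, HT-1376, CAL-29 held for both GTPases, with each step past the threshold. Fewer cells with a transcript and less RNA per cell cannot be told apart in such bulk libraries.

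The line comparisons have to be read against a shift of the whole table. The median log2 fold change over all 13022 genes was 0.43 for HT-1376 against RT-112, 0.84 for CAL-29 against RT-112 and 0.47 for CAL-29 against HT-1376. With TMM scaling of the recovered reads these medians were 0.10, 0.18 and 0.12. Of the called genes, 5557 were higher and 2498 lower in HT-1376 than in RT-112, and TMM scaling gave 4043 and 3634. For CAL-29 against RT-112 the split was 7320 and 1994, or 5029 and 4019 with TMM, and for CAL-29 against HT-1376 it was 5646 and 2298, or 4032 and 3403 with TMM. Relative to the median gene, RAP1B remained higher in CAL-29 than in RT-112 by 2.40 and RAP1A by 1.52 on the log2 scale, and both GTPases passed the threshold in all 3 comparisons with TMM as well.

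Counted over the members, 6 of 10 were called between HT-1376 and RT-112, of which 4 were higher and 2 lower in HT-1376, where 61.9% of all genes were called, 42.7% higher and 19.2% lower. Between CAL-29 and RT-112, 8 of 10 were called and all 8 were higher in CAL-29, where 71.5% of all genes were called, 56.2% higher and 15.3% lower. Between CAL-29 and HT-1376, 9 of 10 were called and all 9 were higher in CAL-29, where 61.0% of all genes were called, 43.4% higher and 17.6% lower. The median member log2 fold changes were 0.66, 2.03 and 1.15. With TMM scaling 6 members were called in each comparison, and these 6 had been called in the deposited scale too. Libraries of both lines did not overlap for 3 members between HT-1376 and RT-112 (44.2% of all genes), 6 between CAL-29 and RT-112 (54.5%) and 4 between CAL-29 and HT-1376 (31.6%). Against a background in which most genes of the table were called, these counts say little about the members as a group, and the values below describe which of them differed.

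**Figure D2:**
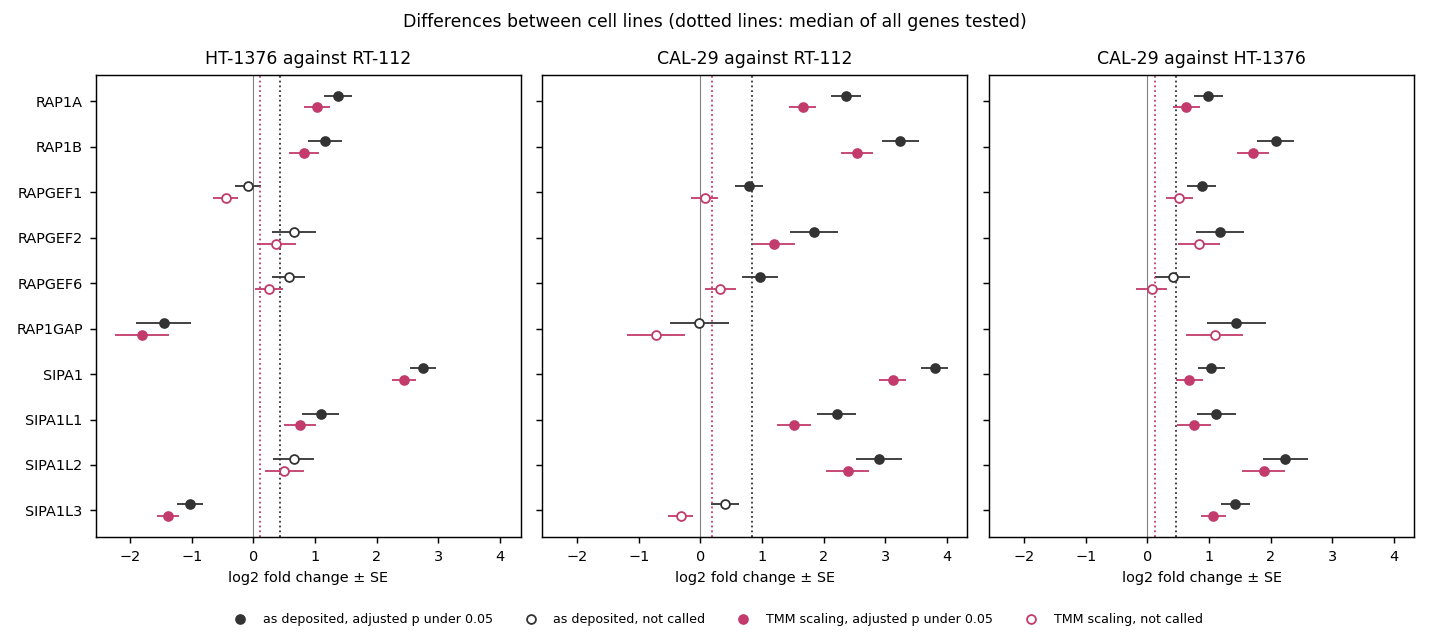
Log2 fold change ± SE of each member in the 3 cell line comparisons, as deposited (black) and after TMM scaling (pink), with filled points for an adjusted p under 0.05 in limma and dotted lines at the median of all genes tested. SIPA1 against RT-112 lies furthest to the right, at 2.75 for HT-1376 and 3.80 for CAL-29, while SIPA1L3 turns from 0.40 to -0.32 between the scalings for CAL-29 against RT-112.

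Among the exchange factors, RAPGEF1 was similar in RT-112 and HT-1376 and higher in CAL-29. It measured 32.08 to 54.86 CPM in RT-112 (median 44.48), 33.68 to 53.40 in HT-1376 (median 36.02), and 76.69, 113.46, 56.02, 87.76 and 56.12 CPM in the KK, KA, WK, WA and WC libraries of CAL-29. All CAL-29 libraries were above all others. CAL-29 exceeded RT-112 by 0.79 ± 0.23 (log2, adjusted p = 0.0062) and HT-1376 by 0.88 ± 0.23 (adjusted p = 0.00424), but the former is at the median of all genes, at -0.05 relative to it, and TMM scaling left neither called (0.07 and 0.52, adjusted p = 0.799 and 0.0577). HT-1376 and RT-112 differed by -0.09 ± 0.21 (adjusted p = 0.722).

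The PDZ domain exchange factors were expressed at a lower level. RAPGEF2 measured 1.16 to 3.13 CPM in RT-112 and 2.81 to 4.47 in HT-1376. It measured 16.76, 6.47, 7.24, 17.13 and 2.87 CPM in the KK, KA, WK, WA and WC libraries of CAL-29, so that CAL-29 WC lay within the ranges of the other lines. It was higher in CAL-29 than in RT-112 by 1.85 ± 0.39 (log2, adjusted p = 0.000758, and 1.20 with TMM, adjusted p = 0.0064). RAPGEF6 measured 2.23 to 3.86 CPM in RT-112 and 2.85 to 5.84 in HT-1376. CAL-29 ranged from 3.15 to 14.63 CPM, and the 3 lines overlapped. Its call in CAL-29 against RT-112 (0.97 ± 0.29, adjusted p = 0.00785) did not hold with TMM (0.32, adjusted p = 0.257), and quantile normalization gave the other sign (-0.25). RAPGEF2 in CAL-29 against HT-1376, at 1.18 ± 0.39 (adjusted p = 0.0178), gave an adjusted p of 0.0506 with TMM, 0.0691 without the KK and 0.103 without the WA libraries. Its call against RT-112 was lost with quantile normalization (0.64, adjusted p = 0.0815). RAPGEF2 passed the filter through CAL-29 libraries alone. Its higher level in CAL-29 against both other lines is therefore tied to how it entered the test and is a description.

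The make-up of the GAP transcripts differed between RT-112 and the other lines. SIPA1L3 led in every RT-112 library. SIPA1 led in every HT-1376 library but KA, where SIPA1L1 led. In CAL-29, SIPA1 led in KK, KA and WA, and SIPA1L3 led in WK and WC. SIPA1 measured 1.58 to 4.04 CPM in RT-112 (median 2.83), 15.72 to 26.30 in HT-1376 (median 22.11), and 49.83, 42.58, 58.95, 52.69 and 26.37 in the KK, KA, WK, WA and WC libraries of CAL-29. No library of 1 line reached into the range of another, although CAL-29 WC at 26.37 CPM lay next to HT-1376 WC at 26.30. The log2 fold changes were 2.75 ± 0.21 for HT-1376 against RT-112 (adjusted p = 8.4e-08), 3.80 ± 0.22 for CAL-29 against RT-112 (adjusted p = 1.1e-08) and 1.04 ± 0.22 for CAL-29 against HT-1376 (adjusted p = 0.00126). Relative to the median gene they were 2.32, 2.96 and 0.57, and they were called with TMM as well, at 2.44, 3.12 and 0.68.

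SIPA1L3 went the other way between RT-112 and HT-1376. It measured 27.89 to 33.14 CPM in RT-112, a narrow range with a mean of 29.95 ± 1.99 (SD, n = 6), and 10.57 to 19.63 in HT-1376. In CAL-29 it measured 45.63, 25.60, 64.31, 46.53 and 29.01 CPM in KK, KA, WK, WA and WC, which overlapped RT-112 and lay above HT-1376. HT-1376 was lower than RT-112 by a log2 fold change of -1.03 ± 0.21 (adjusted p = 0.000837) and CAL-29 was higher than HT-1376 by 1.43 ± 0.23 (adjusted p = 0.000132). Both were called with TMM, whereas the difference between CAL-29 and RT-112 was not called and changed sign with the scaling (0.40 ± 0.23 as deposited, -0.32 with TMM), and DESeq2 called it lower in CAL-29 (-0.44, adjusted p = 0.0494).

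RAP1GAP was also lower in HT-1376 than in RT-112. It measured 8.14 to 21.63 CPM in RT-112 (median 11.28) and 2.24 to 9.15 in HT-1376 (median 3.72), which overlapped only through HT-1376 WC at 9.15 and RT-112 KK at 8.14. The log2 fold change was -1.46 ± 0.45 (adjusted p = 0.0119, and -1.81 with TMM, adjusted p = 0.00254). Without the WA libraries it was -1.31 (adjusted p = 0.0524). CAL-29 ranged from 4.78 to 32.35 CPM, and its excess over HT-1376 (1.44 ± 0.48, adjusted p = 0.019) was not called with TMM (1.09, adjusted p = 0.0596), nor without the KK, KA or WA libraries (adjusted p = 0.0974, 0.0944 and 0.0668).

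SIPA1L1 and SIPA1L2 had their lowest median in RT-112 and their highest in CAL-29. SIPA1L1 measured 3.38 to 5.55 CPM in RT-112 (median 4.80) and 5.10 to 20.59 in HT-1376 (median 10.72). CAL-29 libraries lay between 11.98 and 40.53 CPM (median 18.63), above all of RT-112 and overlapping HT-1376. It was higher in CAL-29 than in RT-112 by 2.21 ± 0.32 (log2, adjusted p = 3.99e-05), in HT-1376 than in RT-112 by 1.09 ± 0.30 (adjusted p = 0.00658) and in CAL-29 than in HT-1376 by 1.12 ± 0.32 (adjusted p = 0.00864, and 0.0593 without the WA libraries). All 3 differences were called with TMM, and that between HT-1376 and RT-112 was not called after quantile normalization (0.54, adjusted p = 0.0717). SIPA1L2 was scarce, at 0.16 to 0.64 CPM in RT-112 and 0.13 to 3.9 in HT-1376, and reached 7.29, 3.43, 9.94, 9.60 and 4.72 CPM in the KK, KA, WK, WA and WC libraries of CAL-29. CAL-29 was higher by 2.90 ± 0.37 than RT-112 (adjusted p = 1.14e-05) and by 2.24 ± 0.37 than HT-1376 (adjusted p = 0.000164), on a scale where the pseudocount of 0.5 CPM understates the change of so low a gene. HT-1376 and RT-112 were not called for SIPA1L2 (0.65 ± 0.34, adjusted p = 0.111). SIPA1L2 passed the filter through CAL-29 libraries alone. Its higher level in CAL-29 against both other lines is therefore tied to how it entered the test and is a description.

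As shares within a library, which do not depend on how libraries are scaled to each other, SIPA1L3 was the largest source of GAP transcripts in every RT-112 library. It gave 48.4% to 64.7% of the summed CPM of the 5 GAP genes there, whereas HT-1376 had 19.8% to 33.6% and CAL-29 had 20.9% to 41.0%. SIPA1 gave 3.3% to 8.4% in RT-112, while HT-1376 had 26.7% to 49.2% and CAL-29 had 30.1% to 37.5%. In both cases the RT-112 libraries stood apart from all libraries of the other lines. RAP1GAP held 16.9% to 37.6% of the GAP transcripts in RT-112. Its share in HT-1376 was 3.4% to 17.1%, and CAL-29 ranged from 4.2% to 26.4%. These shares are given as a description without a test.

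**Figure D3:**
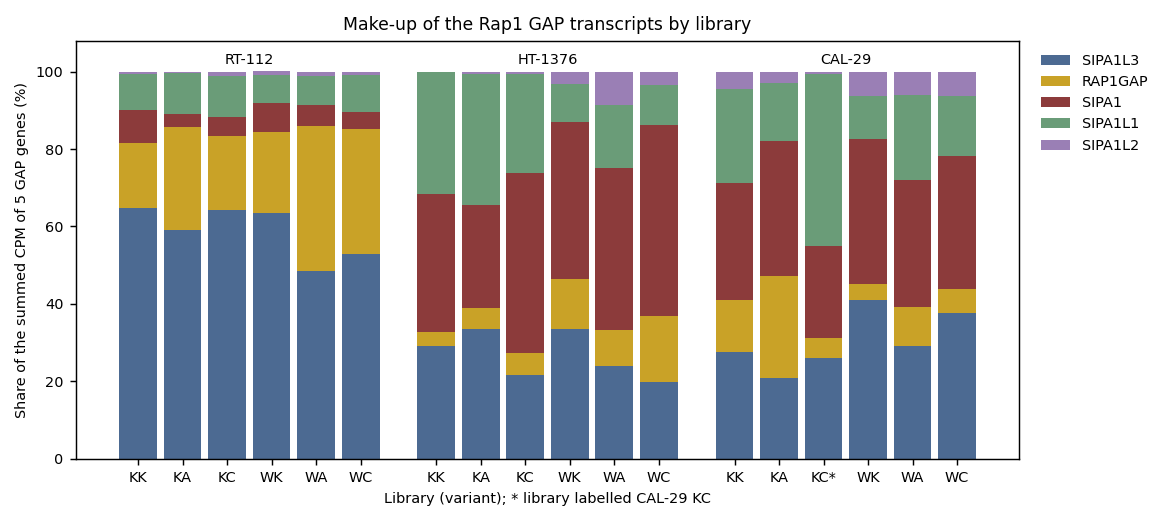
Share of each GAP gene in the summed CPM of the 5 GAP genes, in percent, for each of the 18 libraries, with the library labelled CAL-29 KC marked by an asterisk. SIPA1L3 fills 48.4% to 64.7% of the bars of RT-112, while SIPA1 fills 3.3% to 8.4% there and at least 26.7% of the bars of HT-1376.

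In the library labelled CAL-29 KC, 8 of the 10 members were nearer to the mean of HT-1376 than to that of the other CAL-29 libraries on the log2 scale. RAP1GAP measured 3.34 CPM there against 4.78 to 32.35 in the other CAL-29 libraries, SIPA1L2 0.42 against 3.43 to 9.94, and SIPA1 15.26 against 26.37 to 58.95. RAPGEF6 (6.02 CPM) and SIPA1L1 (28.56 CPM) were nearer to CAL-29. SIPA1L1 in this library exceeded all HT-1376 libraries, whose highest value was 20.59 CPM.

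The question the study put to these data is whether WWOX, AP-2α or AP-2γ changes the expression of a gene against KK. The 5 comparisons share the KK libraries. By limma over all 18 libraries no member was called in WK/KK or in WA/KK and WC/KK, nor in KA/KK and KC/KK, where 0.0% of all genes were called in each. Without adjustment, limma gave a p under 0.05 to 38 genes for WK, 37 for WA and 84 for WC against KK and to 7 for KA and 11 for KC, with no member among them. Member log2 fold changes ran from -1.16 (SIPA1L1, WK/KK) to 1.18 (SIPA1L2, WA/KK), with SE of 0.458 to 1.42, since the difference between lines remained in the spread. limma-voom and edgeR on the recovered reads called 0 genes as well, and DESeq2 called 3 genes for WK, 3 for WA, 9 for WC, 2 for KA and 4 for KC, again without a member.

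With the cell line as a block, which matches the design of 1 library per line, limma still called 0 genes in these 5 comparisons, and no member was called with the block when the library labelled CAL-29 KC was left out. Over 18 libraries with the block, limma gave SIPA1L1 an unadjusted p of 0.0144 in WK/KK (log2 fold change -1.16 ± 0.42, adjusted p = 0.928) and 0.0218 in WC/KK (-1.07 ± 0.42, adjusted p = 0.462), and RAPGEF6 0.0314 in WC/KK (-0.91 ± 0.38, adjusted p = 0.462). Without the library labelled CAL-29 KC, RAP1B in WC/KK (unadjusted p = 0.0266 in limma, adjusted p = 0.347), SIPA1L2 in WA/KK (0.0291, adjusted p = 1) and SIPA1 in KA/KK (0.0481, adjusted p = 1) were under 0.05 before adjustment as well. In WC/KK, RAP1A, RAP1B, RAPGEF6 and SIPA1L3 were lower in 3 of 3 lines, SIPA1L3 by only -0.05 (log2) in RT-112. The median log2 fold change over all genes was -0.25 in that comparison. SIPA1L1 was lower in HT-1376 and CAL-29 but measured 5.55 against 4.49 CPM in RT-112. In the single KK and WK libraries SIPA1L1 measured 40.53 and 17.29 CPM in CAL-29, 20.59 and 5.10 in HT-1376, and 4.49 and 3.38 in RT-112, which is lower in 3 of 3 lines but does not pass the correction. RAP1GAP was higher in KA than in KK in 3 of 3 lines (12.68 against 8.14 CPM in RT-112, 3.23 against 2.24 in HT-1376 and 32.35 against 22.37 in CAL-29), and SIPA1 was lower in 3 of 3 (1.58 against 4.04, 15.72 against 23.35 and 42.58 against 49.83), neither of them called. How many of all genes kept the same direction in 3 of 3 lines was not counted, so these runs are a description.

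Using the factorial design over 17 libraries, with line, first and second vector as terms, again no member was called for WWOX (0.0% of all genes), for AP-2α (0.0% of all genes) or for AP-2γ (0.0% of all genes). At an unadjusted p under 0.05 limma gave 1598, 199 and 343 genes. On the recovered reads, limma-voom called 59, 0 and 0 genes, edgeR 16, 1 and 2, and DESeq2 225, 1 and 12, with 0 members each. SIPA1L2 was higher with WWOX by 0.91 ± 0.30 (log2, unadjusted p = 0.00742 in limma, adjusted p = 0.296) and SIPA1L1 lower by -0.72 ± 0.26 (unadjusted p = 0.0139 in limma, adjusted p = 0.334). For AP-2γ, SIPA1L3 gave -0.46 ± 0.21 (unadjusted p = 0.0449 in limma, adjusted p = 0.999). For AP-2α the member log2 fold changes lay between -0.38 (SIPA1) and 0.56 (RAP1GAP).

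Members were called for WWOX, that is between W and K libraries, within HT-1376. WWOX itself was not raised in that line, at 18.58 to 23.06 CPM in the W and 16.95 to 24.74 CPM in the K libraries. There, 2 of 10 members were called between the W and K libraries, where 8.59% of all genes were called, and both are GAPs of the SIPA1-like family. SIPA1L1 measured 20.59 (KK), 19.97 (KA) and 13.90 CPM (KC) without WWOX and 5.10 (WK), 7.54 (WA) and 5.64 CPM (WC) with it. All 3 W libraries were below all 3 K libraries, and the log2 fold change was -1.50 ± 0.37 (adjusted p = 0.0272 in limma). SIPA1L2 measured 0.13 (KK), 0.28 (KA) and 0.35 CPM (KC) without WWOX and 1.55 (WK), 3.9 (WA) and 1.81 CPM (WC) with it. It was thus higher in every W library, by a log2 fold change of 1.88 ± 0.39 (adjusted p = 0.0118 in limma). Whether the W libraries of a line came from separate WWOX transductions is not given in the sources used here. If they share a transduction, WWOX cannot be told apart from other traits of those cells or their selection. The p-values within a line come from 1 fit over 17 libraries, so their SE pools the spread between libraries of all 3 lines. They do not measure the spread between transductions. SIPA1L2 measured only 0.16 to 0.64 CPM in RT-112, so its pooled SE can understate the spread within HT-1376.

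The SIPA1L2 values rest on few reads. The K libraries of HT-1376 held 2, 5 and 5 reads, with exact 95% Poisson intervals of 0.02 to 0.48, 0.09 to 0.66 and 0.12 to 0.83 CPM. The W libraries held 27, 61 and 33 reads, with intervals of 1.02 to 2.25, 2.98 to 5.01 and 1.24 to 2.54 CPM. The intervals of the K and W libraries did not overlap and cover counting error only. The fitted change depended on the pseudocount, and edgeR on the recovered reads gave 3.30 (adjusted p = 0.0056). Both calls were lost when the library labelled CAL-29 KC entered the fit (adjusted p = 0.0984 for SIPA1L2 and 0.0535 for SIPA1L1), and also when RT-112 was left out (0.0732 and 0.0974), although the difference within HT-1376 stayed as it was.

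**Figure D4:**
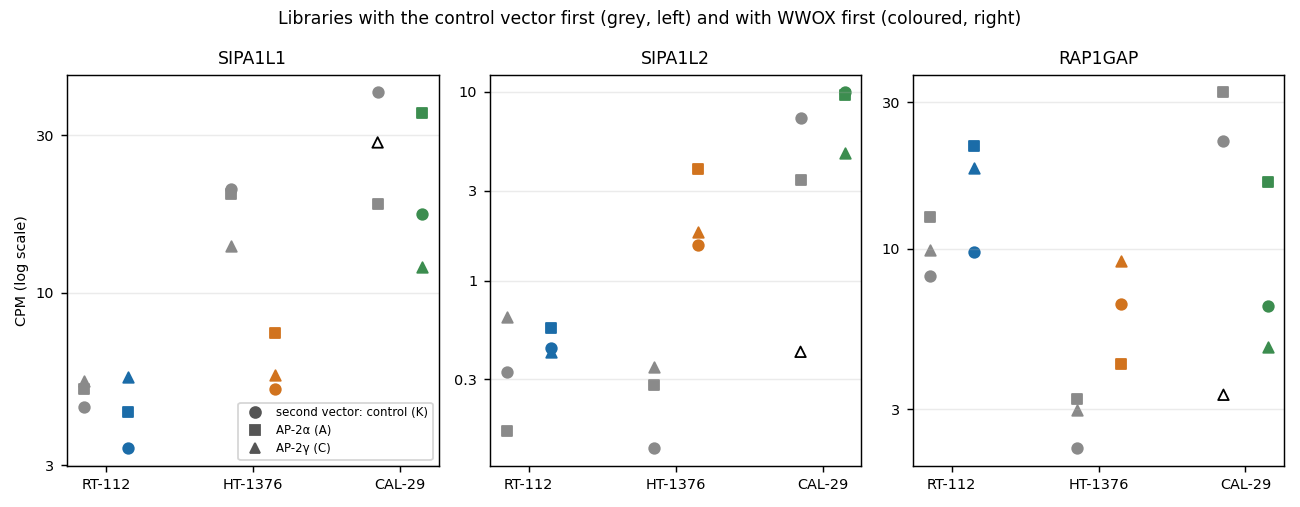
SIPA1L1, SIPA1L2 and RAP1GAP in CPM on log scales for each library, with the control vector first in grey on the left and WWOX first in colour on the right of each line. The shape gives the second vector, and the open triangle is the library labelled CAL-29 KC. In HT-1376 the W libraries of SIPA1L1 (5.10 to 7.54 CPM) sit below the K libraries (13.90 to 20.59), those of SIPA1L2 sit above, and RAP1GAP moves up in HT-1376 and down in CAL-29.

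The GTPases of HT-1376 were not called between the same libraries. RAP1B measured 17.43 (KK), 21.79 (KA) and 29.92 CPM (KC) without WWOX and 9.29 (WK), 17.06 (WA) and 9.37 CPM (WC) with it, which did not overlap but was not called (-0.95 ± 0.44, adjusted p = 0.186 in limma, and 0.0428 without CAL-29). RAP1A measured 15.65 to 20.94 CPM without and 14.30 to 27.80 CPM with WWOX and overlapped. RAP1A made up 35.3% to 49.0% of the reads of both genes in the K libraries and 60.4% to 69.5% in the W libraries of HT-1376, with 432 to 753 reads per library, which is given without a test. The nearest libraries of both groups were KA at 49.0% (Wilson 95% interval 45.4% to 52.6%) and WC at 60.4% (55.7% to 64.9%), intervals that cover counting error only and did not overlap. In RT-112 this share was 47.6% to 51.9% in all 6 libraries, and in CAL-29 it was 30.2% and 50.7% in the 2 K libraries and 32.1% to 38.4% in the W libraries. How reads that fit both genes were treated is not given in the sources used here.

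In HT-1376 the W and K libraries did not overlap for 4 of 10 members, namely RAP1B, RAP1GAP, SIPA1L1 and SIPA1L2, against 35.6% of all genes. In RT-112 they did not overlap for 1 of 10 members, against 21.0% of all genes, and 0.0% of all genes were called there. That member was RAPGEF2, at 1.16, 1.32 and 1.87 CPM in KK, KA and KC and 2.29, 3.13 and 2.95 in WK, WA and WC (log2 fold change 0.76 ± 0.49, adjusted p = 0.816 in limma). In CAL-29 they did not overlap for 1 of 10 members, RAP1GAP, against 18.8% of all genes. No member was called for WWOX in CAL-29, where 0.591% of all genes were called.

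Markers of another cell type differed between the W and K libraries of HT-1376 as well. Of the fibroblast collagen genes, COL1A2 measured 1.49 to 4.37 CPM in the K and 18.85 to 46.08 CPM in the W libraries of HT-1376, and COL1A1 1.32 to 11.13 and 13.23 to 23.28 CPM. COL1A1 measured 3.44 to 4.31 CPM in the K and 6.75 to 7.60 CPM in the W libraries of RT-112, and 9.68 to 13.79 against 5.40 to 9.71 CPM in CAL-29. COL1A2 was listed at 0 CPM in all RT-112 libraries and at 0 to 0.06 CPM in CAL-29. DCN, PTPRC, CD3E, PECAM1 and VWF have no row in the table. The part of these markers in the changes of SIPA1L1 and SIPA1L2 was not tested.

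RAP1GAP was the member whose response to WWOX differed between lines in limma over 17 libraries. In HT-1376 it measured 2.24 (KK), 3.23 (KA) and 2.98 CPM (KC) without WWOX and 6.59 (WK), 4.22 (WA) and 9.15 CPM (WC) with it. In CAL-29 it measured 22.37 (KK) and 32.35 CPM (KA) without and 6.52 (WK), 16.47 (WA) and 4.78 CPM (WC) with WWOX. In RT-112 it measured 8.14, 12.68 and 9.89 CPM in KK, KA and KC and 9.75, 21.63 and 18.33 CPM in WK, WA and WC. Thus every W library was above every K library in HT-1376, every W library was below both K libraries in CAL-29, and the groups overlapped in RT-112.

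The test of the difference itself, an F test over the 3 lines in limma, gave an adjusted p of 0.0391 for RAP1GAP, where 3.02% of all genes were called and 1 of 10 members. The log2 fold changes with WWOX were 1.06 ± 0.38 in HT-1376 (adjusted p = 0.101), 0.62 ± 0.38 in RT-112 (adjusted p = 0.812) and -1.68 ± 0.44 in CAL-29 (adjusted p = 0.102), so that the difference passed the threshold while no single line did in this fit. Within HT-1376, RAP1GAP was called higher in 5 of 14 settings, namely TMM (adjusted p = 0.0453), quantile normalization (0.0355), edgeR (0.0319), DESeq2 (0.00273) and limma without CAL-29 (0.0275). Within CAL-29 it was called lower with quantile normalization (adjusted p = 0.0497) and DESeq2 (0.0107). TMM scaling gave an adjusted p of 0.019, edgeR 0.0234 and DESeq2 1.78e-05 for the difference. It was no longer called without the library labelled RT-112 WA (adjusted p = 0.0788), nor with the library labelled CAL-29 KC in the fit (0.472), where RAP1GAP measured 3.34 CPM. For SIPA1L2 and SIPA1L1, which were called in HT-1376, the difference between lines gave adjusted p of 0.173 and 0.267 in limma. Over 15 settings this difference was called in 10 for RAP1GAP, 2 for SIPA1L2, 1 for SIPA1L1 and 1 for RAPGEF2. A line-specific response of SIPA1L2 and SIPA1L1 thus depends on the setting and is not shown here.

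**Figure D5:**
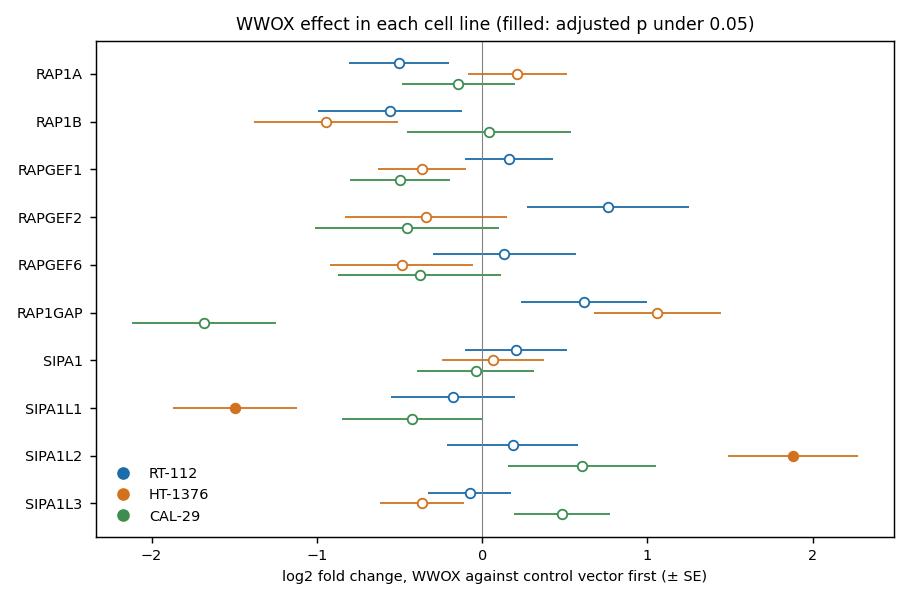
Log2 fold change ± SE of each member between libraries with WWOX and with the control vector first, in RT-112 (blue), HT-1376 (orange) and CAL-29 (green), from 1 limma fit over 17 libraries. Filled points have an adjusted p under 0.05, which holds for SIPA1L1 (-1.50) and SIPA1L2 (1.88) in HT-1376, and the RAP1GAP estimates span from -1.68 in CAL-29 to 1.06 in HT-1376.

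Beyond the members, 18 further regulators of Rap1 and Rap2 GTPases were counted, of which 10 passed the filter. Between HT-1376 and RT-112, 8 were called higher and 1 lower in HT-1376, with 61.9% of all genes called. Between CAL-29 and RT-112, 9 were higher and 1 lower in CAL-29, with 71.5% of all genes called, and between CAL-29 and HT-1376, 5 were higher and 3 lower, with 61.0% called. With TMM the counts were 8 and 1, 6 and 1, and 4 and 3. The median log2 fold changes were 1.38, 1.61 and 0.37. RAPGEF3, the cyclic AMP-activated exchange factor, was lower in CAL-29 than in RT-112, at -2.34 ± 0.28 (adjusted p = 7.76e-06), with medians of 34.15 CPM in RT-112 and 7.02 in CAL-29. The adaptor CRK had the same size of change upwards (2.34 ± 0.23, adjusted p = 1.55e-06) and was also higher in HT-1376 than in RT-112 (1.70 ± 0.22, adjusted p = 1.53e-05). RAP2B, a Rap2 GTPase, was higher in CAL-29 than in HT-1376 by 1.44 ± 0.21 (adjusted p = 5.67e-05).

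Other leading genes of that list entered through the lines they were high in, and their values are given as a description. RAPGEF5, another exchange factor, passed through CAL-29 libraries alone, at 4.92 to 14.62 CPM there, 0.11 to 0.53 in RT-112 and 0.26 to 3.55 in HT-1376. RAP2C, RAP1GDS1, which binds small GTPases, and the scaffold MAGI1 reached 5 CPM in no RT-112 library, with medians there of 2.70, 1.77 and 1.38 CPM. Their medians were 8.01, 8.84 and 5.26 CPM in HT-1376, and CAL-29 had 27.24, 8.56 and 2.62.

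Of 18 Rap1 effectors, 15 passed the filter. In HT-1376 against RT-112, 5 were higher and 6 lower (3 and 6 with TMM), beside 61.9% of all genes called. In CAL-29 against RT-112, 8 were higher and 4 lower (8 and 5 with TMM), beside 71.5% of all genes. In CAL-29 against HT-1376, 10 were higher and 1 lower (7 and 2 with TMM), beside 61.0% of all genes. The median log2 fold changes were 0.37, 1.20 and 0.92. RASSF5, which binds GTP-loaded Rap1, was lower in CAL-29 than in RT-112 (-1.86 ± 0.29, adjusted p = 6.49e-05) and the kinase BRAF, which reached 5 CPM in no RT-112 library, had medians of 2.66 CPM in RT-112 and 17.35 in CAL-29.

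The remaining leading effectors also passed through the lines they were high in. APBB1IP, which links Rap1 to talin and integrins, was found in all 6 HT-1376 libraries, at 2.5 to 11.44 CPM, and was listed at 0 in all RT-112 libraries and in 5 of the CAL-29 libraries. The library labelled CAL-29 KC had 3.93 CPM of APBB1IP. TIAM1, a Rac exchange factor, passed through RT-112 alone, at 5.06 to 8.98 CPM there, while CAL-29 had 1.38 to 4.09 CPM and HT-1376 had 0.20 to 0.92. RGS14, a scaffold that binds Rap GTPases, passed through CAL-29 alone, at 7.93 to 16.86 CPM there against 1.22 to 2.95 in RT-112. PLCE1, a phospholipase C, reached at most 0.34 CPM in HT-1376, where 3 libraries were listed at 0, against medians of 6.95 CPM in CAL-29 and 3.74 CPM in RT-112. In the W against K libraries of HT-1376, 1 of the 15 effectors, APBB1IP (1.26 ± 0.30, adjusted p = 0.0212), and 1 of the 10 regulators, RAP2B (0.69 ± 0.17, adjusted p = 0.027), were called higher by limma, beside 8.59% of all genes called. APBB1IP passed the filter through HT-1376 alone. Its SE pools the spread with that of RT-112 and CAL-29, where it was listed at 0, and can understate the spread within HT-1376.

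The members with the largest spread over the 17 libraries were SIPA1 and SIPA1L2, with SD of 1.68 and 1.45 on the log2 scale. Among all tested genes, those closest to SIPA1 by root mean square difference of centred log2 values were GSAP (0.34), LINC00847 (0.36) and APH1B (0.37), against a median of 1.46 over all genes. GSAP had medians of 0.38, 4.77 and 10.44 CPM in RT-112, HT-1376 and CAL-29, following the same order as SIPA1. Closest to SIPA1L2 were ZSWIM6 (0.39), EGR2 (0.48) and ARL10 (0.49), against a median of 1.31. The libraries share their line and depth, so these values are a description.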

How the data were processed

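CAGE-seq libraries were prepared from 18 samples (3 lines, 6 variants) and sequenced as single-end reads. The authors mapped tags to hg38 with BWA, passed unmapped reads to HISAT2 (2.0.5 per the labels), clustered them with Paraclu in RECLU and filtered clusters by reproducibility. The deposited table holds CPM rounded to 2 decimals, and the rule that assigns clusters to genes is not given in the sources used here. Identifiers were matched to GENCODE 44 symbols for 16553 of 16575 genes. Whole reads were recovered from the CPM for 99.97% to 99.99% of values within 0.0051 CPM, against 12.4% to 19.2% with a wrong step. No 2 libraries of a line agreed within sampling noise (chi-square per degree of freedom at least 19.4).

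The 13022 genes that reached 5 CPM anywhere were tested with limma 3.58.1 (R 4.3.3, trend) on log2(CPM + 0.5), with Benjamini-Hochberg adjustment over all of them and a threshold of 0.05. Variants were compared with KK without a line term over 18 libraries. The study's methods name limma with voom and no line term is stated there, and since the deposited unit is CPM a log scale stood in for voom, which was run on the recovered reads as an alternative. The other comparisons used 17 libraries without the one labelled CAL-29 KC. Lines pair the variants: deviations from the variant mean correlated at 0.742 to 0.915 between RT-112 libraries and 0.588 to 0.896 between HT-1376 libraries, while CAL-29 with the library set apart gave 0.036 to 0.881. P-values measure the spread between these libraries. Alternatives were pseudocounts of 0.05 and 2 CPM, other filters, TMM scaling, quantile normalization, limma-voom, edgeR 4.0.16 and DESeq2 1.42.0 on the recovered reads, the line block and leaving out lines or variants. The fits were tested on simulated data with changes of known size, set only in genes with a mean of at least 5 CPM in every line. Members with a lower mean in a line, SIPA1L2 among them, are not covered. The share recovered is not given here, so the size of change that the variant comparisons could detect is not shown. The Dixon check and the motif counts used Python 3 with pandas and SciPy. Named were all members, up to 3 called genes of each list with the largest change per line comparison and the 3 genes most like the 2 most variable members. The members and lists were chosen with earlier results of these data known. The per-library files repeat the columns of the table and were not used.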

Additional observations from a re-analysis of the deposited data

Results flagged for a closer look

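RAP1GAP was the only member picked out for a closer look, by its response to WWOX in the 3 cell lines. The test of the difference between lines gave an adjusted p of 0.0391 in limma, with 1 of 10 members and 3.02% of all genes called. The log2 fold change was 1.06 in HT-1376, where every W library was above every K library, and -1.68 in CAL-29, where every W library was below both K libraries, so that the highest and lowest estimates lay 2.74 apart. W and K libraries did not overlap for 35.6% of all genes in HT-1376 and for 18.8% in CAL-29. The adjusted p ran from 1.78e-05 (DESeq2) to 0.511 (without CAL-29) over 15 settings, of which 10 gave a value under 0.05. The same measurement rests on 2 K libraries in CAL-29, since the library labelled CAL-29 KC was set apart. No library stood far from the others of its line by Dixon's test in any of 30 groups of member and line, where chance alone would pick about 1 in 20.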

How the results depend on the processing

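The count of members called stayed at 0 under every setting for the 5 variant comparisons, for WWOX, AP-2α and AP-2γ, the cell line as replicate block included (0 members in each), so that the block changed no member call there. It stayed within 1.5 times for the line comparisons except CAL-29 against RT-112 with quantile normalization, which called 5 members. Members whose response to WWOX differed by line numbered 0 without RT-112 or HT-1376 (0 genes in each) and 3 without CAL-29 (1213 of 13022 genes). DESeq2 called 2 members and 1162 genes. With the library labelled CAL-29 KC, 0 members and 0 genes were called. Without it and RT-112 WA, chosen after seeing the data, 0 members and 151 genes were called. The cause was not tested.

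Of 942 values under alternatives, 19 reversed their sign, 36 were no longer called and 14 became called. Of the reversed values, RAPGEF1 and RAPGEF6 in CAL-29 against RT-112 had been called as deposited. RAPGEF1 in that comparison was -0.04 with DESeq2, and in HT-1376 against RT-112 it ranged from -0.23 to 0.01 when a variant was left out (0.00013 without WK). RAPGEF6 with quantile normalization was -0.03 in HT-1376 against RT-112, -0.25 in CAL-29 against RT-112 and -0.22 in CAL-29 against HT-1376. SIPA1L3 in CAL-29 against RT-112 was -0.32 with TMM, -0.26 with quantile normalization, -0.31 with limma-voom, -0.31 with edgeR and -0.44 with DESeq2. RAP1GAP in CAL-29 against RT-112 was 0.01 with a pseudocount of 2 CPM, 0.06 without the variant term, -0.38 to 0.45 when a variant was left out (0.14 without WK, 0.05 without WA) and 0.11 without the libraries labelled CAL-29 KC and RT-112 WA. RAP1GAP over all second vectors with WWOX ran from -0.33 without HT-1376 to 0.84 without CAL-29, with -0.10 without RT-112. At 13357102 reads or more per library, SIPA1L2 in RT-112 and in the K libraries of HT-1376 was near the floor of 3 reads (0.158 to 0.213 CPM), and smaller differences were not detectable there.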
